A study of Mus musculus with 24 samples.

Results

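Of 35518 genomic regions bound by Cdx2 in at least 2 of 12 libraries from mouse colon organoids, 7025 (19.8%) lay inside introns and far from any start site. These regions were found by merging overlapping peaks of the 12 peak lists on chromosomes 1 to 19, X and Y. A region was kept as an intronic region far from start sites when the median of its peak summits fell inside the body of a protein-coding gene, outside every annotated exon, and more than 10 kb from the start of any transcript. Summits inside protein-coding gene bodies numbered 14686, and 13462 of these were outside exons.

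Cdx2 is a homeobox transcription factor that sets and maintains the identity of the intestinal epithelium, from the small bowel to the colon. It binds AT-rich DNA, with TTTATGG as a typical core, and most of its binding in intestinal cells is away from promoters, at enhancers. An intron can hold an enhancer of the gene it belongs to or of a neighbouring gene, and binding alone does not say which gene, if any, responds.

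Binding was measured by ChIPmentation, chromatin immunoprecipitation in which a transposase adds the sequencing adapters, with an antibody to Cdx2 in organoids grown from the first and last 1.0 cm of the colon of 3 female mice aged 8 weeks. By the study's general organoid methods, the mice carried 1 Cre-inducible BRAFV600E allele and 1 tdTomato reporter allele, which would hold for every group. Sex, age and genotype come from those general methods. The ChIPmentation methods give only the number of mice. The labels name no Cre treatment. Culture lasted 4 months in a medium with Wnt3a, EGF, Noggin and R-spondin 1 (WENR-plus), and for WENR-minus libraries the organoids then had 2 days with and 3 days without these factors. Each site was sampled in each medium, which gave 4 groups of 3 libraries. The peak lists held 5608 to 42192 peaks. They carry no read totals, and those that the study states were not used here, so differences in depth between libraries were not taken into account. The libraries with replicate number 3 had the lowest motif shares in every group, and results that rest on them are given without them as well.

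The sequences of 7 of these regions show what the peaks sit on. Each is the 101 bases of mm10 centred on the median summit, read on the plus strand from 5′ to 3′, and the capitals mark every match to the Cdx2 motif on either strand. The motif searched was TTTATGA or TTTATGG or TTTATTA or TTTATTG, with the reverse complement of each. The first 2 were the regions of highest mean rank of fold in the 12 libraries. The regions in Bche and Frk were the strongest of 2 genes densely covered with regions. Every proximal library and none of the distal ones called those in Abca12 and Lingo2, and the reverse held for the one in Muc16.
Prkg2, chr5:99010606-99010706: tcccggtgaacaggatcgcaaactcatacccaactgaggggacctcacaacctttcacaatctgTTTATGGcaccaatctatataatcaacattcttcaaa
Slc25a24, chr3:109156532-109156632: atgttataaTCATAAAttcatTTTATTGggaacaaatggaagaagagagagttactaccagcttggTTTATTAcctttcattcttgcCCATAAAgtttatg
Abca12, chr1:71381285-71381385: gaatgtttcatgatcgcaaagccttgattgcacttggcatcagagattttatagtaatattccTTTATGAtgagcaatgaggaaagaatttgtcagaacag
Lingo2, chr4:35992572-35992672: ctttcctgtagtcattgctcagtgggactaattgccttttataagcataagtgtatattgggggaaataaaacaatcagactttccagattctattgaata
Muc16, chr9:18561267-18561367: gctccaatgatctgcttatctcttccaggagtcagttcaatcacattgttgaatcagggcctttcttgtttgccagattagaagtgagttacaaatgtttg
Bche, chr3:73693532-73693632: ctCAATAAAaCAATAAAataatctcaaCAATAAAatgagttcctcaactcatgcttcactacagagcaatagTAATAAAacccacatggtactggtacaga
Frk, chr10:34572363-34572463: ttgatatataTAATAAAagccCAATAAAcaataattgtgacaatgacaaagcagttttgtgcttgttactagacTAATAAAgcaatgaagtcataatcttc
The regions in Slc25a24 and Bche held 4 matches each, that in Frk 3, and those in Prkg2 and Abca12 a single match. No match was found in the windows of Lingo2 and Muc16. In the 5 windows with a match, the nearest one was centred 16 to 26 bp from the summit.

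The 101-bp windows of these intronic regions held the Cdx2 motif far more often than their surroundings. A match was present in 4763 of 7025 regions (67.8%), compared with 11.2% of windows of the same length placed 1000 bp to either side. A single match was found in 39.5% of regions and several matches in 28.3%, while 2262 regions (32.2%) had none. Over the whole set of 35518 regions, 66.7% held a match and 11.3% of their flanking windows did. Among the 4 forms of the motif, TTTATTA and TTTATGA were the most numerous at the summits, with 2041 and 2013 matches. The form TTTATGA stood furthest above its flanking windows, at 10.9 times their number, and TTTATTA the least, at 6.24 times.

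Motif matches did not pile up on the summit itself but on both sides of it. At the median summits, the number of matches per 100 regions in each 10 bp was 12.8 in the bin from 30 to 20 bp before the summit and 13.9 in the bin from 20 to 30 bp after it, with 8.90 and 8.23 in the bins next to the summit. With each library's own summits, the mean over the 6 combinations of site and replicate number was 12.6 ± 1.85 (SD) at 20 to 30 bp, 4.55 ± 0.849 within 10 bp and 2.70 ± 0.415 at 100 to 200 bp. The value at 20 to 30 bp was above that within 10 bp in all 6. Regions within 1 kb of a protein-coding start had the same shape at a lower level, as the plot of motif position shows.

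**Figure D1:**
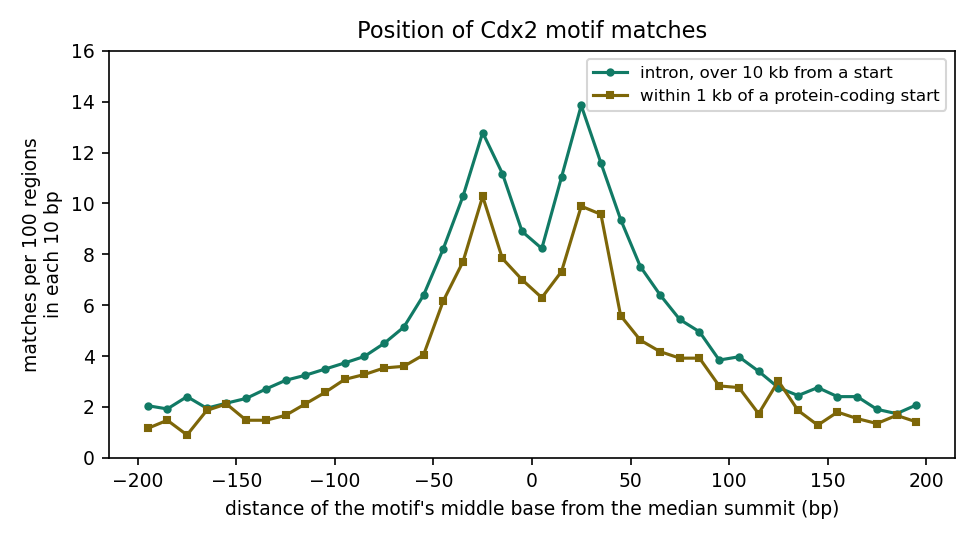
The x axis gives the distance in bp between the middle base of a Cdx2 motif match and the median summit, and the y axis the matches per 100 regions in each 10 bp. The curve of the 7025 intronic regions peaks at 12.8 and 13.9 on either side of the summit and dips to 8.23 beside it, and the curve of 1557 regions near protein-coding starts runs mostly below it.

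Compared with other kinds of region, intronic regions far from starts had a higher raw motif share than promoters and about the same as intergenic regions. Each library's own summits were scored, and libraries of 1 site and 1 replicate number were averaged over the media, which gave 6 values. The motif share of intronic regions was 59.5% ± 5.75 (SD, n = 6). Regions within 1 kb of a protein-coding start had 47.8% ± 5.23, lower by 11.7 percentage points and in 6 of 6 values (adjusted p = 0.03125, two-sided exact sign-flip permutation test over 6 values, Benjamini-Hochberg over 3 classes). Intronic regions 1 to 10 kb from a start had 56.1% ± 3.98, and those farther away exceeded them by 3.43 points, in 6 of 6 (adjusted p = 0.03125, same exact permutation test). Regions outside genes and over 10 kb from a start had 61.0% ± 6.14, and the difference of introns from them was -1.55 points, with the same sign in 6 of 6 (adjusted p = 0.03125, same exact permutation test). This p is the smallest that 6 values allow. The 6 values come from 3 mice, and over the 3 replicate numbers the smallest possible p is 0.25, which all 3 comparisons gave. The difference from intergenic regions changed sign, to 0.747 points higher in introns, when every list was reduced to its strongest 5608 peaks. With windows of 25 bp or 100 bp to each side of the summit it missed the threshold (adjusted p = 0.0938 and 0.188, same exact permutation test). None of these shares is set against its flanking windows. At median summits, promoters held a match in 54.7% and their flanks in 7.80%, compared with 67.8% and 11.2% for far introns. Nearer introns had 62.5% and 10.1%, and intergenic regions 70.8% and 12.7%. Relative to flanks, the promoter share was thus the highest. The part of base composition in the raw difference was not tested.

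**Figure D2:**
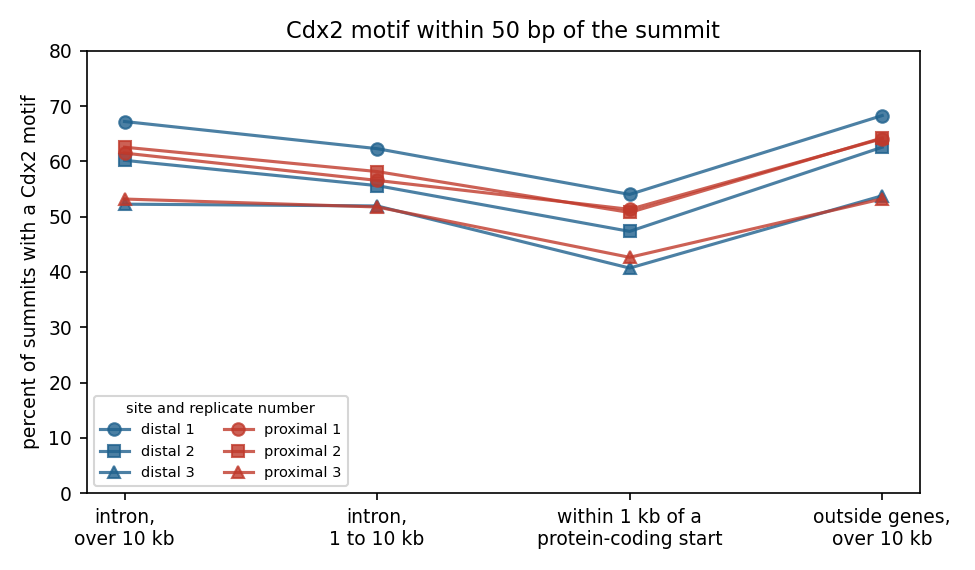
Each line joins the motif shares, in percent of summits with a match within 50 bp, of 1 combination of site (red proximal, blue distal) and replicate number (marker shape) in 4 kinds of region. All 6 lines fall from the intronic regions far from starts to the promoters, and the 2 lines of replicate number 3 lie lowest at every kind of region.

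The motif share within introns did not separate the groups. The 3 proximal WENR-plus libraries had 62.5%, 59.0% and 55.5%, and the 3 distal WENR-plus libraries 66.6%, 60.2% and 54.2%. In WENR-minus medium the proximal libraries had 60.5%, 66.1% and 50.9% and the distal libraries 67.8%, 60.2% and 50.3%. All groups overlapped, and the differences ran from 0.885 points down to -1.32 points (adjusted p = 1 for each, two-sided exact permutation test, 3 against 3, smallest p 0.1). Within each group the library numbered 3 was the lowest, and without these libraries the excess of intronic regions was 12.0 points over promoters and 4.70 points over introns nearer to a start, with a difference of -1.93 points from intergenic regions.

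The motif was least frequent at regions found in few libraries. It was present in 62.1% of the 1938 regions called in 2 libraries (95% Wilson interval 59.9% to 64.2%), in 68.5% of 2711 called in 3 to 5, in 71.9% of 1272 called in 6 to 8, in 69.7% of 732 called in 9 to 11 and in 75% of 372 called in all 12 (70.4% to 79.1%). These intervals cover counting error only. Regions of the same position called in 1 library, which were not kept, numbered 5085 and held it in 51.2%. On either side of the distance limit there was little change. The 798 intronic regions 8 to 10 kb from a start held the motif in 63.5% and were called in 5.15 libraries on average, and the 705 at 10 to 12 kb held it in 65.2% and were called in 5.35.

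The motifs searched for other factors were matched in smaller shares of the windows. They differ in length and in how many sequences they match, so these shares cannot be compared between factors. Their ratios to the flanks were all below the 6.05 of the Cdx2 motif. TGACTCA, the AP-1 motif, was in 4.71% of the intronic windows and 1.65% of their flanks, a ratio of 2.85. CAAAGTCC, a core of the Hnf4 motif, was in 0.940% against 0.320%, and TTAATNATT, a core of the Hnf1 motif, in 2.26% against 1.08%. For factors of the Gata family the motif AGATAA was in 10.04% against 7.37%, and TGTTTAC, a forkhead motif, in 2.96% against 1.47%. CCNCNCCC, a Klf motif, went the other way, with 3.43% at summits and 5.59% in the flanks. The motif of the Wnt effectors Tcf and Lef was in 1.24% against 0.833%, while GGAATG (Tead) at 5.68% against 5.27% and CCGGAA (Ets) at 0.612% against 0.626% were close to their flanks. Both strands were searched for each. Over all 35518 regions the shares at summits were 4.59% for AP-1, 0.966% for Hnf4, 2.14% for Hnf1 and 10.2% for Gata, near those of the introns.

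The intronic regions were narrow and AT-rich. Their median width was 421 bp (quartiles 308 and 579) and their median distance from a start 26390 bp, with a maximum of 721040 bp. The median GC content of the 101-bp windows was 34.7%, the same as over all regions and below the 39.6% of promoters. In 42.4% of the windows no base was marked as repeat, compared with 35.6% of intergenic windows and 52.5% of promoter windows. The median region was called in 4 libraries.

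These regions were spread over introns at nearly the density of the genome as a whole. Introns more than 10 kb from any start made up 513 Mb, or 18.8% of the chromosomes used, and held 19.8% of the regions, or 13.7 per Mb. Sequence outside genes and equally far from starts held 11.6 per Mb, and the whole genome 13.0 per Mb. Within introns the density fell with distance, from 14.9 per Mb at 10 to 20 kb and 13.8 at 20 to 50 kb to 12.6 at 50 to 100 kb, 11.5 at 100 to 200 kb and 11.1 beyond 200 kb. Motif shares went up along the same bins, from 65.5% and 66.6% to 71.3%, 75% and 77.3%, and the share called in all 12 libraries went down, from 6.17% to 1.52%. The motif shares per bin were not set against flanking windows, and the part of base composition in their rise was not tested. Per library the fall in density was uneven. The ratio of the nearest to the farthest bin was 1.26 to 1.84 in the 4 combinations of site with replicate numbers 1 and 2, 5.45 in proximal number 3 and 8.33 in distal number 3. Along the host gene, the density was 14.4 per Mb of such intron in the first of 3 equal parts from the 5′ end, 13.9 in the middle part and 12.8 in the last. The nearest protein-coding start belonged to the host gene for 6241 regions (88.8%) and to another gene for 784 (11.2%).

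Host genes numbered 2676, which is 30.1% of the 8888 protein-coding genes that have any intron more than 10 kb from a start. A single region was found in 1323 of them, at least 5 in 383 and at least 10 in 99. The 383 genes held 3249 regions, or 46.2% of all. Host genes were long, with a median body of 125 kb compared with 42.3 kb for the eligible genes without such a region. The share of genes with a region went from 5.13% for those with up to 10 kb of eligible intron to 96.2% for those with over 300 kb, whereas the density stayed between 1.25 and 1.56 per 100 kb. Neighbouring regions of 1 gene were a median of 25.5 kb apart, and 19.6% of neighbours were within 5 kb.

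A Cdx2 region at their own promoter was found at a larger share of host genes than of other genes of similar eligible length. A region within 1 kb of one of their starts was found for 302 host genes (11.3%) and for 425 of 6212 eligible genes without an intronic region (6.84%). The share was larger at each length. It was 10.3% of hosts and 7.77% of others with up to 10 kb of eligible intron, 11.7% of hosts and 6.18% of others with 10 to 50 kb of eligible intron, 14.1% and 6.38% with 50 to 100 kb, and 9.92% and 3.83% with 100 to 300 kb. Above 300 kb it was 8.13% of hosts and 0 of 13 others. These shares are a description and carry no test.

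The genes with most regions per kb had bodies of 31.7 to 128 kb and 5 to 9 regions each. Among genes with at least 5 regions the median was 1.86 per 100 kb of gene body, and the 10 densest ran from 7.04 to 22.1. The plot of regions against gene length sets them apart from the genes with most regions in number.

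**Figure D3:**
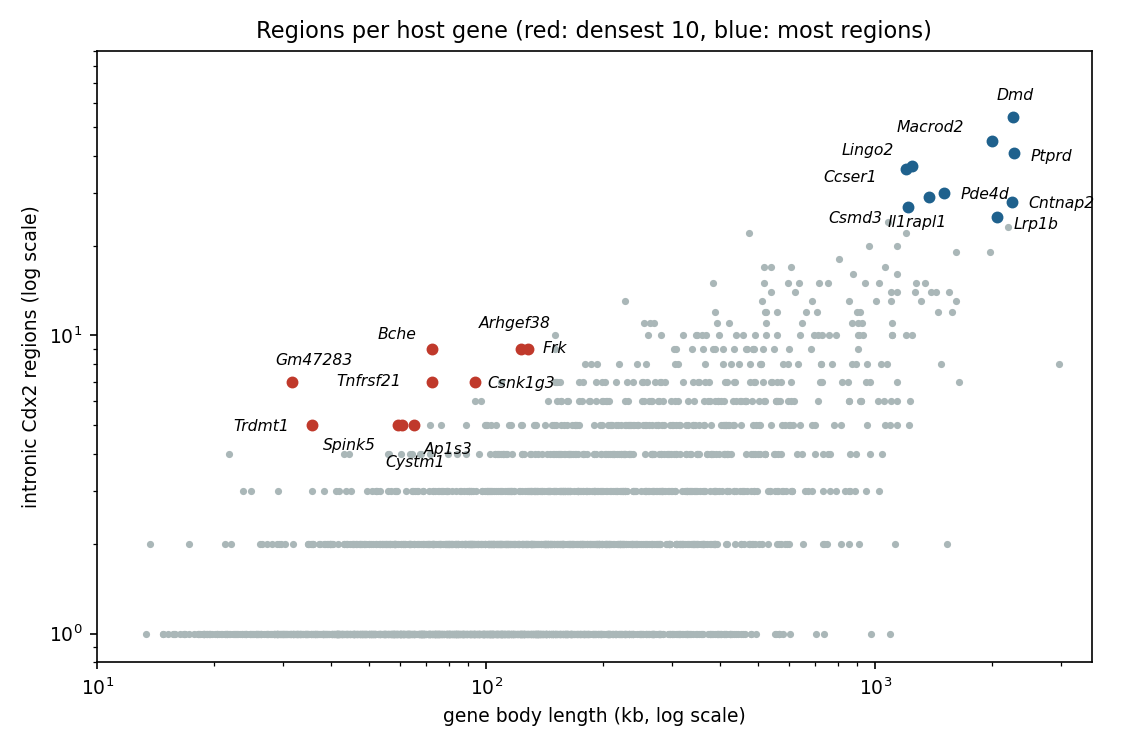
Each point is 1 of 2676 host genes, with the length of the gene body in kb on the x axis and the number of intronic Cdx2 regions on the y axis, both on log scales. The 10 densest genes (red), led by Gm47283 and Trdmt1, have 5 to 9 regions in 31.7 to 128 kb, and the 10 with most regions (blue) have 25 to 54 in bodies of 1203 to 2271 kb.

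Bche, which encodes butyrylcholinesterase, a serum and tissue esterase, had 9 regions in a body of 72.6 kb on chromosome 3, or 12.4 per 100 kb. The strongest lay 14.7 kb from the start and was called in 11 libraries. It had 84.2% of its 101-bp window marked as repeat (median over all intronic regions 14.9%). Its fold enrichment, the deposited ratio of the pileup at the summit to the local background, was 20.9, 28.5 and 21.9 in the 3 proximal WENR-plus libraries and 37.3, 30.8 and 26.3 in the 3 proximal WENR-minus libraries. In the distal libraries it was 7.05 and 7.995 in WENR-plus, with no call in the third, and 10.01, 6.84 and 5.82 in WENR-minus. Each proximal value was thus above each distal value. However, folds of single lists also depend on sequencing depth and on the input used, and this region was not tested. It was picked as the strongest of a dense gene, and the share of all regions that separate in this way is not given here. Of the 9 regions in Bche, 6 were called in proximal libraries alone, as were 34.4% of all 35518 regions, and a proximal library called 3 to 8 of them against 0 to 3 in a distal library, which overlap at 3. The gene also had a region at its promoter.

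Frk, an Src-family tyrosine kinase of epithelial cells, had 9 regions in 128 kb of chromosome 10. A single one was called in all 12 libraries, 88.9 kb from the start, with a fold of 23.1, 23.2 and 28.2 in proximal WENR-plus, 31.7, 24.8 and 40.4 in proximal WENR-minus, 8.82, 16.4 and 9.62 in distal WENR-plus and 21.6, 18.1 and 25.2 in distal WENR-minus. The distal WENR-minus values overlapped those of the proximal libraries. The other 8 regions had median folds of 4.57 to 6.83. Proximal libraries called 2 to 9 of the 9, and distal libraries 2 to 5. The numbers over all 35518 regions were 10730 to 29963 and 5362 to 18536.

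Arhgef38, a guanine nucleotide exchange factor, had 9 regions in 122.7 kb of chromosome 3 and 2 of them in all 12 libraries. The regions stood in groups, with 3 between 37.2 and 38.9 kb from the nearest start. Tnfrsf21, the death receptor DR6, had 7 regions in 72.6 kb of chromosome 17. None was called in all 12 libraries, and their median folds lay in the narrow range of 4.68 to 5.81. The maps of these 4 genes show single strong regions among weaker ones in Bche and Frk, and more even regions in Tnfrsf21.

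**Figure D4:**
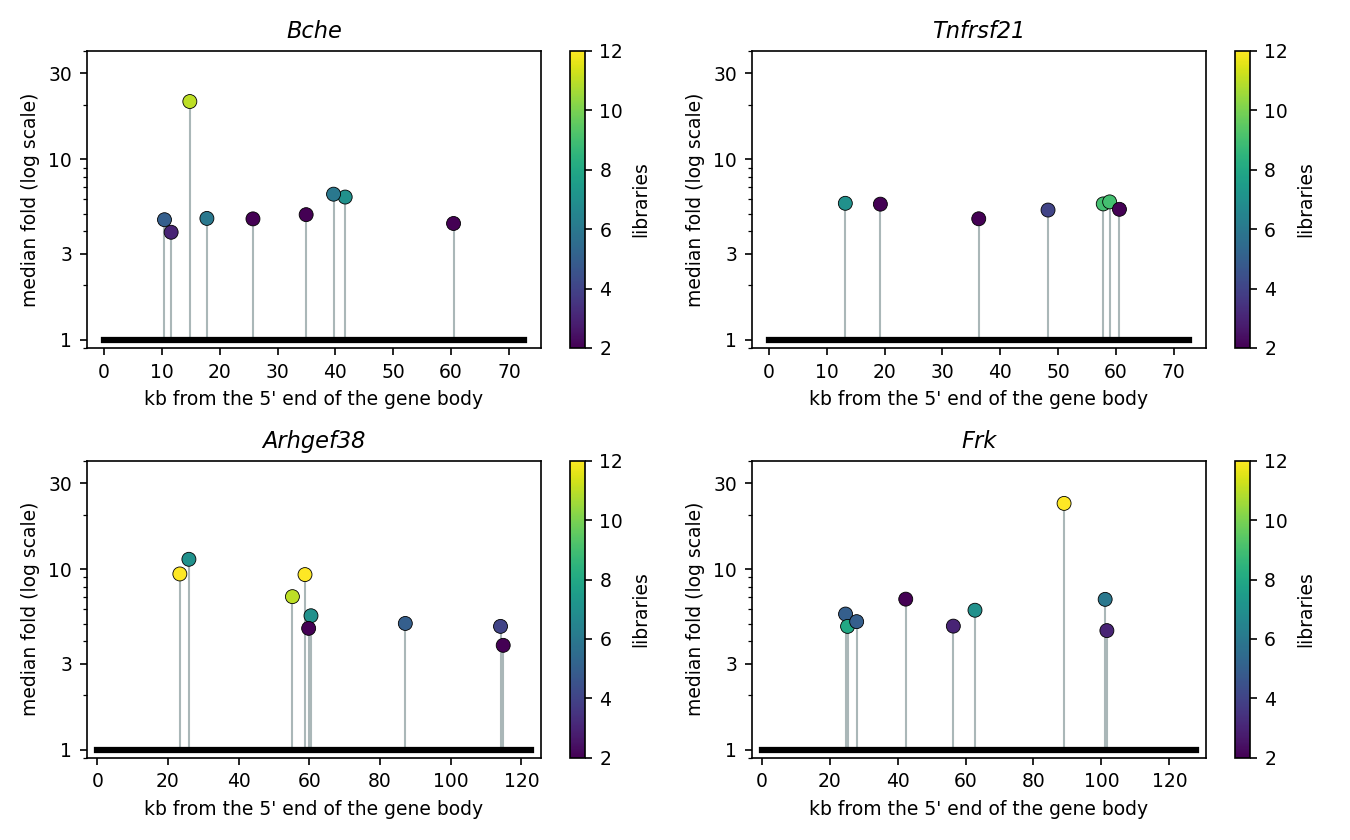
Each panel is 1 gene, drawn from its 5′ end as a black bar with the distance in kb on the x axis. Each circle is a region, with its median fold over the libraries that called it on the y axis (log scale) and the number of those libraries as its colour. The highest circles are those of Bche (20.9) and Frk (23.2), and the 7 of Tnfrsf21 stay between 4.68 and 5.81.

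Trdmt1, a methyltransferase that acts on tRNA, had 5 regions in 35.7 kb of chromosome 2, or 14.0 per 100 kb, and 2 of them were called in all 12 libraries. The nearest protein-coding start of 2 of the 5 was that of Cubn, the receptor cubilin. The window at the median summit held a motif in 1 of the 5, and 4 of the 5 had one at the summit of at least 1 library. Ap1s3, a subunit of a clathrin adaptor, had 7.68 regions per 100 kb. Spink5, a serine protease inhibitor of epithelia, had 8.44, Cystm1 8.25 and Csnk1g3, a casein kinase 1, 7.49. All 5 regions of Spink5 held the motif at the median summit, and none was called in more than 6 libraries.

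The highest density was that of Gm47283, a gene model of chromosome Y (chrY:90784738-90816464), with 7 regions in 31.7 kb. These were the 7 intronic regions of chromosome Y in all, and 2 of them were called in all 12 libraries. Their folds were low, with medians of 2.67 to 4.24. The mice were female according to the study's methods. Whether this stretch of sequence is also present on chromosome X was not examined. Where the reads aligned there came from is therefore uncertain and was not tested.

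The order of the densest genes depended on what was counted. With kb of eligible intron in place of gene body, 6 of the 10 genes stayed among the 10 densest, and 1110059E24Rik, Lima1, Slc9a2 and Baiap2l1 came in. When a region had to be called in at least 3 libraries, 5 stayed, and Rasef, Slc9a2, Parm1, Hnf4g and Nsmce2 came in. With every list reduced to 5608 peaks, Arhgef38 alone stayed. Its density was then 4.08 per 100 kb, and Nsmce2, Cmah, Hnf4g and Ptprj followed.

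The genes with the highest number of regions were among the longest in the genome. Dmd, the gene of dystrophin, had 54 in 2257 kb, or 2.39 per 100 kb. It was followed by Macrod2, a hydrolase of ADP-ribose, with 45, the receptor phosphatase Ptprd with 41, Lingo2 with 37, Ccser1 with 36 and the cAMP phosphodiesterase Pde4d with 30. Il1rapl1 had 29, Cntnap2 28, Csmd3 27 and Lrp1b 25. Most of the regions in these genes were called in few libraries. In Dmd none was called in all 12, and the 6 proximal libraries called 2 to 42 of its 54 (median 25) and the 6 distal libraries 0 to 24 (median 4), which overlap widely. Per library, the numbers over all 35518 regions were 10730 to 29963 in proximal and 5362 to 18536 in distal libraries. Macrod2 had 4 regions called in all 12, Pde4d and Ptprd 3 each and Csmd3 2. None of the 10 genes had a region at a promoter.

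Lingo2, a leucine-rich repeat protein of the cell surface, had regions called mostly in proximal libraries. A proximal library called 13 to 32 of its 37 regions (median 20), and a distal library 0 to 13 (median 1). Of the 37, 23 were called in proximal libraries alone and none in distal libraries alone. Calls in proximal libraries alone made up 35.3% of all intronic regions and 34.4% of all 35518 regions.

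Gene lists differed in how many of their genes were hosts and in their density, and the share of hosts also depends on gene length, as given above. For all 8888 eligible genes the share of hosts was 30.1% and the density 1.37 per 100 kb of eligible intron, with a median over genes of 0. Among gut epithelial transcription factors 15 of 23 eligible genes were hosts, with 55 regions and 2.09 per 100 kb (median over genes 2.05). Hnf4g, a nuclear factor of enterocytes, had 10 regions, 3 of them in all 12 libraries, and a region at its promoter. Tcf7l2, the main Tcf factor of Wnt signalling in the gut, had 6. A proximal library called 5 to 10 of the regions in Hnf4g and a distal library 3 to 7. The numbers over all 35518 regions were 10730 to 29963 and 5362 to 18536.

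Brush border and actin genes had the highest density of the lists, with 66 regions in 16 of 25 eligible genes and 2.65 per 100 kb (median over genes 1.78). Diaph2 and Diaph3, formins that elongate actin filaments, had 15 and 9 regions, and Myo1e, a membrane-bound myosin, 8. Epithelial junction and polarity genes had 82 regions in 20 of 34 genes, at 1.93 per 100 kb (median over genes 1.95). They were led by Magi1, a scaffold of tight junctions, with 17 regions, by the polarity protein gene Pard3b with 13 and by Pard3 with 9.

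Genes of solute and ion transport had 52 regions in 19 of 44 eligible genes, at 2.17 per 100 kb, with a median over genes of 0. Cftr, the chloride channel of crypt cells, had 7 regions, 6 of them with the motif at the median summit, and a promoter region. A proximal library called 5 to 7 of the 7 and a distal library 2 to 4, where the numbers over all 35518 regions were 10730 to 29963 and 5362 to 18536. Kcnma1, a potassium channel, and Slc4a4, a bicarbonate cotransporter, also had 7 each.

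Among signalling genes, the Wnt pathway had 48 regions in 15 of 36 eligible genes (2.19 per 100 kb, median over genes 0), with 9 in the corepressor gene Tle4, 7 in Csnk1g3 and 6 in Tcf7l2. The EGF receptor and MAPK pathway had 80 regions in 18 of 33 genes (1.91 per 100 kb, median 0.937), of which the receptor gene Erbb4 held 24, and the ligand genes Nrg3 and Nrg1 10 and 8. The BMP and TGF-beta pathway had 22 regions in 14 of 30 genes (1.59 per 100 kb, median 0), led by the ubiquitin ligase gene Smurf2 with 5 and by Zfyve9 with 3. Nuclear receptor genes were near the average, with 47 regions in 14 of 28 genes and 1.41 per 100 kb (median 0.153), and Nr3c2, the mineralocorticoid receptor of the distal colon, held 10 of them and Rarb 9.

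The secretory, neuronal and muscle lists had densities near or below that of all eligible genes. Genes of secretory lineages had 8 regions in 5 of 20 eligible genes, or 0.726 per 100 kb (median over genes 0). Genes of neuronal adhesion and synapse were hosts in 49 of 50 cases with 541 regions, but these genes are long and their density was 1.22 per 100 kb (median 1.06). Muscle and extracellular matrix genes had 108 regions in 20 of 33 genes and 1.42 per 100 kb (median 0.541), and 54 of the 108 were in Dmd. The lists were drawn up with earlier results of these data known, so these counts are descriptions and carry no test.

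Proximal libraries called more intronic regions than distal libraries, as they called more regions of every kind. In WENR-plus medium the 3 proximal libraries had 5203, 5881 and 2493 of the 7025 and the 3 distal libraries 1364, 2347 and 1025. The 2 groups did not overlap, and the geometric mean was 2.85 times higher in proximal organoids (adjusted p = 0.4, two-sided exact permutation test on log2 numbers, smallest unadjusted p 0.1). In WENR-minus medium the values were 4729, 2913 and 2159 in proximal and 3563, 1425 and 1464 in distal libraries, which overlap, and the ratio was 1.59 (adjusted p = 0.5, same exact permutation test). Between the media the ratio of WENR-plus to WENR-minus was 1.37 in proximal and 0.761 in distal organoids (adjusted p = 0.5 for both, same exact permutation test). With every list at 5608 peaks, a library held 908 to 1050 intronic regions.

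The share of each library's regions that lay in far introns was almost constant, from 18.98% to 20.12%. It was 19.8% ± 0.115 in proximal and 19.1% ± 0.113 in distal WENR-plus libraries (SD, n = 3 each), which did not overlap (adjusted p = 0.4, two-sided exact permutation test). In WENR-minus libraries it was 19.7% ± 0.365 and 19.3% ± 0.257 (adjusted p = 0.4, same exact permutation test). The difference of 0.650 points in WENR-plus medium was small beside the share itself.

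**Figure D5:**
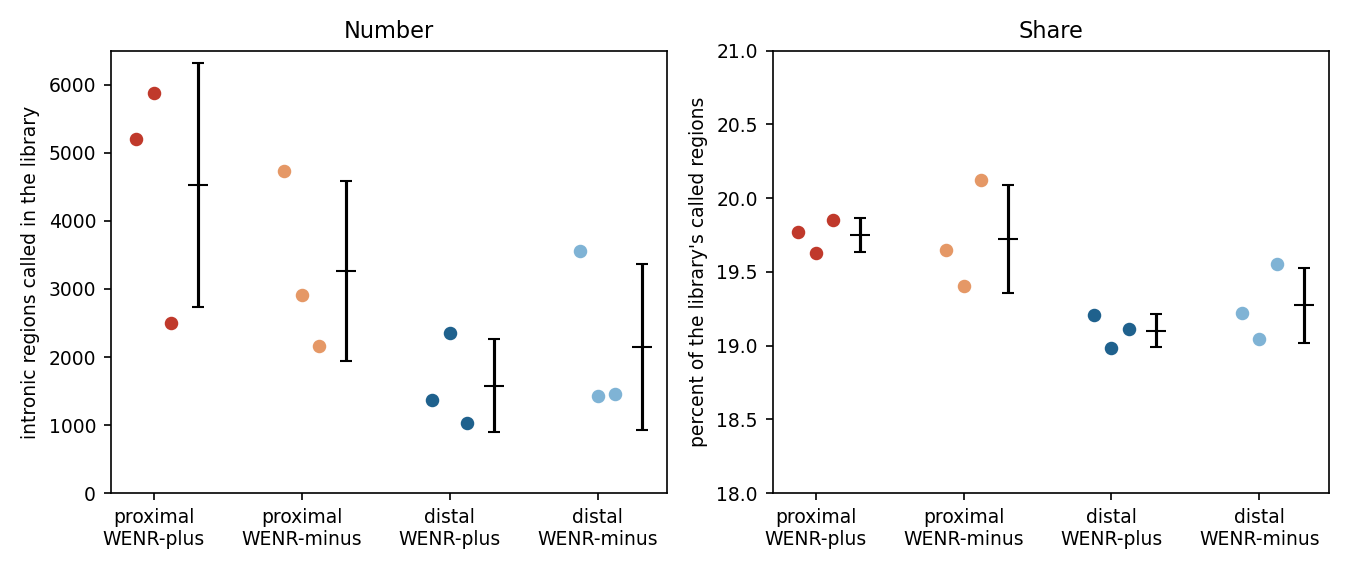
Points are single libraries in 4 groups of 3, and the bars give the mean and the SD. The left panel shows the number of the 7025 intronic regions called, from 1025 to 5881, and the right panel their percent among all regions called in the library, on an axis from 18 to 21.

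Intronic regions found in each of the 3 libraries of one group but in no library of the compared group were mostly proximal, as over all regions. By site, the proximal shares were somewhat above the background and the distal ones near it. In WENR-plus medium 650 (9.25%) were exclusive to proximal libraries, where the background over all 35518 regions was 8.12%, and 18 (0.256%) to distal libraries, with a background of 0.259%. In WENR-minus medium 304 (4.33%) were exclusive to proximal libraries (background 3.53%) and 41 (0.584%) to distal libraries (background 0.577%). Between the media fewer were exclusive. In proximal organoids 86 were found in WENR-plus medium alone (1.22%, background 1.28%) and 13 in WENR-minus medium alone (0.185%, background 0.206%). In distal organoids 17 were found in WENR-plus medium alone (0.242%, background 0.222%) and 51 in WENR-minus medium alone (0.726%, background 0.709%). The longer proximal lists have a part in these counts that cannot be told apart from site. With lists of equal length, which held 2027 intronic regions, the proximal and distal counts were 75 and 49 in WENR-plus medium. They were 111 and 51 in WENR-minus medium. In the same order, the shares over all regions of these lists were 3.32%, 2.18%, 4.57% and 1.97%.

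Across both media, 161 intronic regions (2.29%) were found by each of the 6 proximal libraries and by none of the distal ones, with a background of 1.8% over all regions. Another 10 (0.142%) were found by each distal and by no proximal library, with a background of 0.0957%. With lists of equal length the numbers were 33 and 17 of 2027 intronic regions (1.63% and 0.839%), against 1.29% and 0.618% of all regions. The motif was present in 99 of the 161 and in 3 of the 10.

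The strongest of the proximal regions was in Lingo2, 11.6 kb from the nearest start, with folds of 30.7, 32.3 and 35.6 in WENR-plus and 24.2, 22.5 and 38.1 in WENR-minus medium and no call in any distal library. Its rank of fold was at least 98.6% in every list that called it, and it had no motif match at any of its 6 summits. The next was in Abca12, a lipid transporter gene, with folds of 19.02, 14.7 and 18.8 in WENR-plus and 15.05, 9.91 and 17.8 in WENR-minus medium. All 6 summits there held a motif, as did those of the regions in Mtus2, which encodes a microtubule-binding protein, and in Kif16b, an endosomal kinesin gene. The region in Suclg2, a subunit of succinyl-CoA ligase, had folds of 9.09 to 16.7 and no motif.

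The 5 distal regions named were picked from 10 and the 5 proximal ones from 161, so their strengths were not compared. The distal region of highest mean rank of fold was in Muc16, a membrane-bound mucin gene. Its folds were 9.68, 11.1 and 11.9 in distal WENR-plus and 10.3, 9.86 and 9.84 in distal WENR-minus libraries. A motif was present at 1 of its 6 summits. Rgs6, a regulator of G protein signalling, held 2 such regions next to each other, with folds of 7.53 to 15.6 and 5.38 to 10.04. Tmtc1 and Dennd1a held the others named here, with folds of 5.52 to 12.3 and 5.59 to 10.2.

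The regions with the highest mean rank of fold among the 372 called in all 12 libraries were in genes of varied function. The first was in Prkg2, a cGMP-dependent protein kinase of the intestinal brush border that regulates chloride secretion. Its folds were 51.3, 50.8 and 76.3 in proximal WENR-plus, 36.8, 46.3 and 55.9 in proximal WENR-minus, 24.7, 29.8 and 29.9 in distal WENR-plus and 35.2, 25.6 and 37.0 in distal WENR-minus libraries. All 12 summits held a motif. The region in Slc25a24, a mitochondrial carrier gene, had folds of 27.6 to 53.6, and that in Slc9a2, the sodium-proton exchanger NHE2 of the apical membrane, 18.5 to 39.5. The other 7 were in Fam19a1, Dync1i1, Golph3l, Lama2, Tatdn1 (a body it shares with the gene model Gm49356), Kdm5b and Cpne8, with median folds of 28.6 to 50.4. In 9 of the 10 a motif was found at 11 or 12 of the summits, and in Fam19a1 at 8.

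Strength was also compared as the rank of a region's fold within its own list, in percent. The median rank of intronic regions far from starts was 53.0 ± 3.57 (SD, n = 6), compared with 47.5 ± 5.44 at promoters, which was 5.48 lower (adjusted p = 0.0469, two-sided exact sign-flip permutation test over 6 values). Introns nearer to a start ranked at 56.6 ± 2.82, a difference of -3.62 (adjusted p = 0.0469, same exact permutation test), and intergenic regions ranked 53.7 ± 1.99, with no difference past the threshold (adjusted p = 0.625, same exact permutation test). Over the 3 replicate numbers the adjusted p was 0.375 for both of the first comparisons. When regions were ranked by p-value in place of fold, the difference from promoters was -0.104.

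At the 2079 regions called in all 12 libraries, of which 372 were intronic regions far from starts, the fold was compared between groups with limma on quantile-normalized log2 values, adjusting over all 2079. In WENR-plus medium 3 intronic regions were higher in proximal organoids, where the background was 1.88% of regions, and 3 were higher in distal organoids (background 0.914%). In WENR-minus medium 3 were higher in proximal (background 1.06%) and 2 in distal organoids (background 0.481%). Between the media in distal organoids, 2 were higher in WENR-plus (background 0.433%) and 1 in WENR-minus medium (background 0.385%). In proximal organoids limma called 0 intronic regions in either direction (background 0.0%), and 30 of 372 (8.06%) had an unadjusted p under 0.05, against 116 of 2079 regions (5.58%). The difference between the medium effects of the 2 sites was past the threshold at 0 intronic regions, with 20 of 372 (5.38%) at an unadjusted p under 0.05, against 89 of 2079 regions (4.28%). With the replicate number as a term of the model, 19, 23, 8 and 0 intronic regions were called in the same 4 comparisons (site in WENR-plus, site in WENR-minus, medium in distal, medium in proximal). These were 5.11%, 6.18%, 2.15% and 0% of the 372, where 6.35%, 5.63%, 2.84% and 0% of all 2079 regions were called. Without replicate 1 none was called in any comparison, without replicate 2 none, and without replicate 3 the counts were 6, 2, 0 and 0.

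A second region in Abca12, called in all 12 libraries and 37.4 kb from a start, had the lowest p in WENR-plus medium. Its folds were 18.4, 24.5 and 25.4 in the proximal and 8.04, 7.41 and 5.97 in the distal libraries, a log2 difference of 1.18 ± 0.235 (SE, limma adjusted p = 0.0230). Slc8a1, a sodium-calcium exchanger gene, had a region with folds of 23.5, 20.1 and 26.6 in proximal and 6.61, 9.33 and 6.33 in distal libraries, and a region in Atp6v1h, a subunit of the vacuolar proton pump, differed by 1.11 on the log2 scale. In the other direction, the region in Sytl2 had folds of 5.41, 5.26 and 6.65 in proximal and 7.93, 11.5 and 8.53 in distal libraries (log2 difference -0.99 ± 0.225, limma adjusted p = 0.0326). Sytl2 and Sytl5 encode Rab effectors of vesicle transport. Regions in Cadm1, a cell adhesion gene, and Sytl5 were the other distal calls. All 3 distal calls missed the threshold when regions called in at least 10 libraries were tested (limma adjusted p = 0.0566, 0.0637 and 0.0767). Between the sites the folds did not overlap at the regions in Abca12, Slc8a1 and Sytl2, which were picked by this same comparison. At the region in Cadm1 they did, with 8.87, 7.21 and 5.82 in proximal and 10.6, 17.3 and 8.11 in distal libraries.

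In WENR-minus medium the proximal calls were regions in Dach1, a transcription factor gene, in Slc22a3, an organic cation transporter gene, and in Apaf1, a component of the apoptosome, with log2 differences of 1.11, 1.21 and 0.98. The folds in Slc22a3 were 15.9, 16.3 and 19.3 in proximal and 6.46, 4.34 and 7.69 in distal libraries (limma adjusted p = 0.0279). The distal calls were regions in Pan3 and in the gene model Gm37240, with log2 differences of -1.19 and -1.41. None of the 5 was called in WENR-plus medium, and a difference between the media was not past the threshold at any of them.

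The 3 regions called between the media in distal organoids were in Mid1 and Pbx3, higher in WENR-plus, and in Fam129a, higher in WENR-minus medium. Pbx3 encodes a homeobox protein that binds DNA with other homeobox factors, and its region had folds of 7.93, 9.77 and 10.7 in WENR-plus and 5.49, 4.73 and 4.70 in WENR-minus libraries (log2 difference 0.95 ± 0.213, limma adjusted p = 0.0497). The region in Fam129a had folds of 6.17, 9.33 and 5.55 in WENR-plus and 15.2, 13.8 and 11.9 in WENR-minus libraries (log2 difference -1.17, limma adjusted p = 0.0385). All 3 were lost with median centring in place of quantile normalization (limma adjusted p from 0.0988 to 0.110) and when regions called in at least 10 libraries were tested (0.0584 to 0.0979).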

How the data were processed

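Cdx2 ChIPmentation was analysed in 12 libraries, and the 12 matched inputs were used only through the deposited peak lists. According to the study's methods and the submitters' processing notes, the authors used Trimmomatic 0.39 for trimming and Bowtie2 2.4.5 for alignment to mm10, and called peaks per library with MACS2 2.2.7.1 against the input at a q limit of 0.01. The deposited narrowPeak lists give a display score, the fold enrichment at the summit (a ratio), the −log10 p and −log10 q of the peak and the summit position. They give no read totals, and the totals stated by the study were not used here, so list length was the only stand-in for depth.

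Peaks overlapping by at least 1 bp were merged and placed on GENCODE release 21 and the mm10 sequence (RefSeq GRCm38), with Python 3.11.15, pandas 2.3.3 and pysam 0.24.0. Groups follow the labels. The study drew all groups from 3 mice, but no source used here says which replicate number is which mouse, so p-values measure the spread between these libraries. Numbers per group were compared with exact permutation tests, kinds of region with exact sign-flip tests, and log2 fold at shared regions with limma 3.58.1 in R 4.3.3, all with Benjamini-Hochberg adjustment at 0.05, after a check on simulated data. Genes named are the 10 with most regions per kb of body (at least 5 regions), the 10 with most regions and the 3 leading hosts of each list, of which one, and the sequence of one region, are not reported here. Regions named are the 10 of highest mean rank of fold in all libraries, the 5 highest found at 1 site alone, and all limma calls. The members and the gene lists were chosen with earlier results of these data known.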

Additional observations from a re-analysis of the deposited data

How the results depend on the processing

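The lists differ in length, read totals were not used, and 3 mice limit each comparison. The number of intronic regions was 12110 when 1 library was enough and 4465 at over 20 kb from a start. Their share was 26.4% at over 5 kb, 12.6% at over 20 kb and 23.3% when starts of protein-coding genes alone were used. Where a result below lost its call, the cause was not tested unless fewer samples are named.

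Between the media, log2 numbers per library turned to -0.029 (proximal) and 0.0066 (distal) with lists of equal length, and the distal difference ran from -0.95 to 0.10 when 1 replicate was left out. The difference in share in proximal organoids turned to -0.363 points with equal lists, -0.110 at −log10 q of at least 5 and -0.118 at over 5 kb, and ran from -0.072 to 0.173 with 1 replicate left out. In distal organoids it turned to 0.199 with equal lists and 0.0188 at over 5 kb.

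The excess in motif share over promoters was 12.2 points at −log10 q of at least 5 and 11.4 to 12.0 with 1 replicate left out, and over nearer introns 2.97 and 2.68 to 4.70. Against intergenic regions it was 0.747 with equal lists, -0.981 at the stricter q, -0.549 and -0.808 with 25 and 100 bp to each side, and -1.93 to -1.31 with 1 replicate left out. With the replicate block the 3 values stayed 11.7, 3.43 and -1.55, and those of the rank of fold 5.48 (promoters) and -3.62 (nearer introns), none past the threshold, since 3 numbers cannot reach it. The rank of fold differed from promoters by 7.99 with equal lists, -0.104 by −log10 p and 4.49 to 6.14 with 1 replicate left out. From nearer introns it differed by -2.37, -3.66 and -4.30 to -3.25, and from intergenic regions by 0.370 with equal lists and -1.47 to 0.398 with 1 replicate left out. Leaving out a replicate leaves 4 values, too few for the threshold.

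With equal lists, group-exclusive intronic regions numbered 75 (proximal) and 49 (distal) in WENR-plus, 111 for proximal in WENR-minus, 14 (WENR-plus) and 23 (WENR-minus) in proximal, and 24 for WENR-minus in distal organoids. With 1 replicate left out, which needs fewer libraries to agree, the counts were 846 to 2484 and 28 to 59 by site in WENR-plus, 460 to 649 and 94 to 105 by site in WENR-minus, 140 to 1004 and 26 to 135 by medium in proximal, and 25 to 116 and 78 to 313 by medium in distal organoids.

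Limma calls by site in WENR-plus numbered 17 with median centring, 14 by −log10 p, 19 with the replicate block and 0 to 6 with 1 replicate left out. By site in WENR-minus they numbered 13, 14, 23 and 0 to 2, and 14 for regions in at least 10 libraries. By medium in distal organoids they numbered 0 with median centring, 0 for at least 10 libraries, 8 with the replicate block and 0 to 0 with 1 replicate left out. Same-numbered libraries had correlated deviations above 0.1 in 10 of 12 pairs (0.0074 to 0.557), and 9 of 12 libraries correlated best with their own number. All groups came from 3 mice, and no source used here ties the numbers to them.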
